A study of Mus musculus with 6 samples.

Results

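Rpl3 and Rpl3l encode the wider and the striated-muscle form of one ribosomal protein, and they are described here as 2 genes of the 31273 in the table. Both were chosen by symbol, with their levels in these libraries already known, so every value that sets them against each other between control and RBM20 overexpression is a description without a test. RPL3 is a core protein of the large ribosomal subunit that reaches towards the site where peptide bonds are formed. RPL3L takes its place in ribosomes of heart and skeletal muscle, and it is a marker of mature striated muscle. In these left ventricles the control libraries carried similar amounts of both transcripts, whereas with RBM20 overexpression Rpl3 stood at 3.26 times its control mean and Rpl3l at 0.395 times its control mean. The share of Rpl3l in the sum of both was 56.9% ± 4.12 in control and 13.9% ± 1.97 with overexpression (SD, n = 3 per group).

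The study profiled polyadenylated RNA of mouse left ventricle in 6 libraries, 3 labelled control and 3 labelled with overexpression of RBM20, a splicing regulator, in cardiomyocytes. The series describes a tamoxifen-inducible knock-in made specific to cardiomyocytes. The labels used here give no age or sex, and do not say whether control mice carried the recombinase or received tamoxifen, so these cannot be told apart from the effect of RBM20. The titles abbreviate the control libraries as cki and the others as cre without explaining either, and the groups follow the genotype labels. Rbm20 stood between 74.9 and 90.9 TPM in controls, whereas overexpression replicates 1 to 3 had 321, 913 and 907 TPM, where TPM is a gene's share of a fixed total of transcripts after correction for length. Esr1, the estrogen receptor gene, was at or below 0.415 TPM in control libraries and between 53.0 and 218 TPM with overexpression. Gene totals do not show whether these Esr1 reads come from the gene itself or from an introduced sequence, and their source was not tested. Overexpression replicate 1 stood apart by sex: the Y-linked Ddx3y was at 88.1 TPM there and at 0 in the other 5 libraries. Estimated depth was 32180000 to 67750000 counted reads per library. The 16 cardiomyocyte markers summed to between 64192 and 75162 TPM in all 6 libraries. That range holds for TPM only, since such sums depend on the scaling between libraries.

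Rpl3 (ENSMUSG00000060036.14) spans chr15:80077791-80091868, minus strand, and Rpl3l (ENSMUSG00000002500.15) chr17:24727820-24736143, plus strand (GRCm38, GENCODE M21). Their main messenger RNAs have 10 exons each, with coding sequences of 1212 and 1224 bases. These were identical at 899 of 1209 aligned bases (74.4%), and the longest run without a mismatch was 22 bases. Reads of 150 bases, as the labels give, can therefore tell the 2 messages apart. The stretch of 60 coding bases most alike between them, coding bases 520 to 579 in exon 5 of both, shows how even the closest part carries scattered differences, which are in capitals. It lies at chr15:80080475-80080534 on the minus strand and at chr17:24733327-24733386 on the plus strand, and is written 5′ to 3′ in the direction of the message.
Rpl3: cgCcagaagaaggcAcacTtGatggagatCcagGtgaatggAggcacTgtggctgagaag
Rpl3l: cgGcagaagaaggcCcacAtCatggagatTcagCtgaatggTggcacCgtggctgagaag

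Of these 60 bases 52 were identical. The stretch least alike, coding bases 856 to 915 in exon 7 of both, had 37 identical bases. It lies at chr15:80078743-80078802 on the minus strand and at chr17:24733923-24733982 on the plus strand.
Rpl3: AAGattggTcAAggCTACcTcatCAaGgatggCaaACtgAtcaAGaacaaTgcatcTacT
Rpl3l: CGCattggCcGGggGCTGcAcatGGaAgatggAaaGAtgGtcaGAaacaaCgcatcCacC

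The messages also end differently, and the last 45 coding bases are shown with the stop codon in capitals. They lie in exon 10 of both, at chr15:80077850-80077894 and at chr17:24736012-24736056.
Rpl3: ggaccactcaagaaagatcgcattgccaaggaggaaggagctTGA
Rpl3l: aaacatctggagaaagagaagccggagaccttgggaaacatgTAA

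Rpl3 has another source of uncertainty, since GENCODE M21 lists the processed pseudogenes Rpl3-ps1 and Rpl3-ps2. Aligned to the Rpl3 coding sequence they were 99.8% and 99.2% identical, with shared runs of 728 and 187 bases. Reads from those stretches cannot be placed with certainty, and how the authors treated them is not given in the sources used here. The pseudogenes themselves were not analysed here.

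Rpl3, the form found in nearly all cells, stood at 155, 156 and 121 TPM in control replicates 1 to 3. In overexpression replicates 1 to 3 it stood at 503, 493 and 415 TPM. All overexpression libraries were above all control libraries, with means of 144 ± 19.99 and 470.2 ± 48.1 TPM (SD, n = 3 per group). The log2(TPM + 1) difference was 1.70, and 518 of 12404 tested genes (4.18%) had a difference at least as large.

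Rpl3l, the muscle form, was measured at 217, 171 and 183 TPM in control replicates 1 to 3. With overexpression its values were 75.7, 70.2 and 79.9 TPM. All overexpression libraries were below all control libraries, with means of 190.4 ± 23.8 and 75.3 ± 4.85 TPM (SD, n = 3 per group). The log2(TPM + 1) difference was -1.32, and 221 tested genes (1.78%) had a difference at or below it. Over all tested genes 72.5% had groups that did not overlap in TPM, 62.1% higher and 10.4% lower with overexpression, so a lack of overlap by itself does not set either gene apart.

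**Figure D1:**
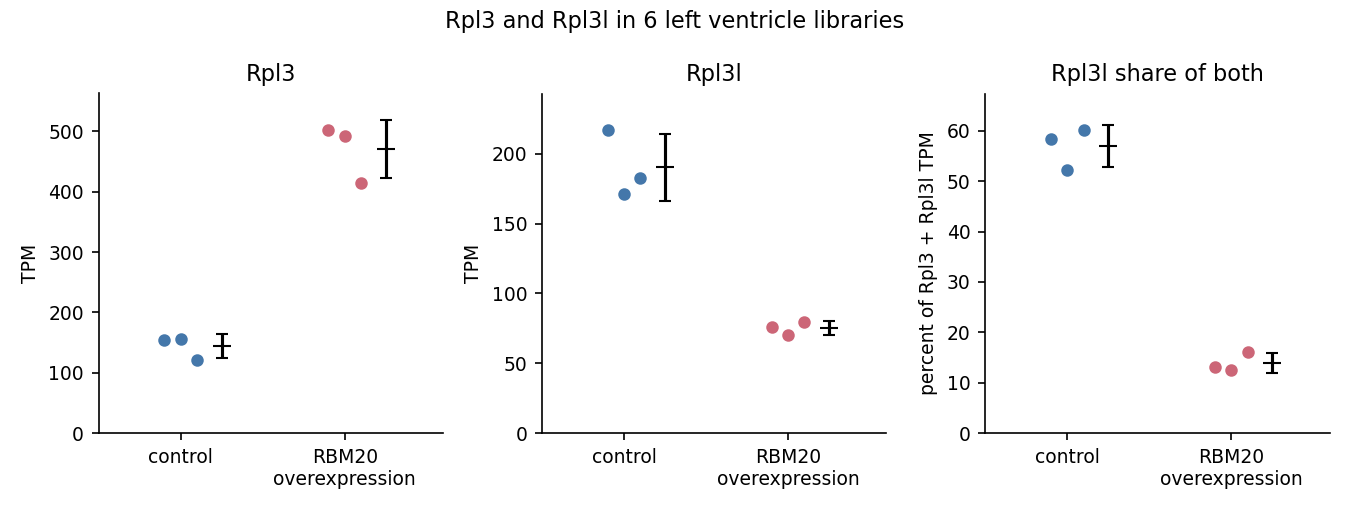
Rpl3 (left) and Rpl3l (middle) in TPM, and the share of Rpl3l in the summed TPM of both in percent (right), for the 3 control and 3 RBM20 overexpression libraries. Each point is 1 library and the black bars give the mean and SD; Rpl3 is higher and Rpl3l lower in every overexpression library, and the share goes from 52.3% or more to 16.1% or less.

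TPM values share a fixed total, and the median gene had a log2 difference of 0.55 in TPM. Mitochondrially encoded RNA made up 49.7% ± 1.99 of TPM in control and 38.7% ± 2.21 with overexpression (SD, n = 3 per group). As a second scaling, each library was divided by a median-of-ratios factor, which brought the median difference to 0.01. After this rescaling Rpl3 stood at 177 ± 21.2 and 375 ± 26.0 on the TPM scale, 2.11 times the control mean, with a log2 difference of 1.08. Rpl3l stood at 235 ± 35.0 and 60.4 ± 7.93, 0.257 times the control mean, with a log2 difference of -1.94. The directions of both genes were thus the same under both scalings, with Rpl3 nearer to and Rpl3l farther from the control level after rescaling. On that scale 664 tested genes (5.35%) had at least the difference of Rpl3, and 187 (1.51%) were at or below that of Rpl3l.

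The share of Rpl3l in the sum of Rpl3 and Rpl3l is a ratio within a library and does not depend on that scaling. It was 58.4%, 52.3% and 60.2% in control replicates 1 to 3 and 13.1%, 12.5% and 16.1% in overexpression replicates 1 to 3. Put as a ratio of deposited TPM, Rpl3 stood at 0.714, 0.913 and 0.662 times Rpl3l in control and at 6.64, 7.02 and 5.19 times with overexpression. Both the share and this ratio depend on the transcript lengths used, which are taken up below. Without overexpression replicate 1, the library with Ddx3y, the overexpression mean of the share was 14.3%, of Rpl3 454 TPM and of Rpl3l 75.1 TPM. That library had the lowest Rbm20 level of its group and a share between those of the other overexpression libraries.

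Levels of different genes in TPM depend on the length used for each. The steps between values showed which lengths were used: with the longest GENCODE M21 transcript of each gene, 12196 of 12300 tested genes (99.2%) gave whole read numbers within 0.02 in all libraries, against 2 genes with lengths made 1 base longer. For Rpl3l that length is 1375 bases, its main messenger RNA. For Rpl3 it is 1877 bases, the length of a transcript annotated with a retained intron, whereas the main messenger RNA has 1351 bases. The deposited TPM of Rpl3 are therefore 1.39 times lower than they would be at the length of its messenger RNA.

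At messenger RNA length the control libraries would have 215, 217 and 168 TPM of Rpl3, beside 217, 171 and 183 TPM for Rpl3l. Rpl3l was above Rpl3 in all 3 control libraries in deposited TPM, but in 2 of 3 at this length, so the order of the 2 genes in control ventricle is not settled by these data. The share of Rpl3l became 50.2%, 44.1% and 52.1% in control libraries and 9.78%, 9.30% and 12.2% with overexpression. Changes of each gene between groups do not depend on this length.

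The read numbers recovered in this way were 5856, 8316 and 3935 for Rpl3 in control replicates 1 to 3, and 18369, 16333 and 25595 in overexpression replicates 1 to 3. For Rpl3l they were 6011, 6676 and 4352, and then 2026, 1704 and 3610. As a share of the reads of both genes, Rpl3l had 50.7% (95% Wilson interval 49.8 to 51.6), 44.5% (43.7 to 45.3) and 52.5% (51.4 to 53.6) in the control libraries. It had 9.93% (9.53 to 10.4), 9.45% (9.03 to 9.88) and 12.4% (11.99 to 12.7) in the overexpression libraries. The intervals cover counting error only, and the share of every library lay outside the intervals of the other libraries of its group. Numbers of 2 reads were seen in 915 to 1044 genes per library and numbers of 1 read in 318 to 422 genes, so read ends may have been counted singly, which would make the intervals too narrow.

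A ribosome holds 1 protein of this family, so the sum of both genes was set against the 46 other large-subunit genes of the list. The sum of Rpl3 and Rpl3l was 372, 328 and 304 TPM in control libraries and 578, 563 and 495 TPM with overexpression. The other 46 genes together stood at 13578 to 15611 TPM in control libraries and 20835 to 25676 TPM with overexpression, 1.601 times the control mean. Rpl3 and Rpl3l together thus came to 2.38%, 2.24% and 2.24% of that total in control libraries and 2.25%, 2.38% and 2.38% with overexpression, and the groups overlapped. Rpl3 alone went from 0.984% ± 0.0884 to 2.01% ± 0.0648, and Rpl3l alone from 1.30% ± 0.117 to 0.325% ± 0.0507 (SD, n = 3 per group).

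This match between groups depends on the lengths. With the length of each gene's principal protein-coding transcript, an alternative chosen after the data were seen, both genes together came to 2.35%, 2.25% and 2.20% in control libraries and 2.55%, 2.69% and 2.66% with overexpression. The groups then no longer overlapped. The means were 2.27% ± 0.0787 and 2.64% ± 0.0748 (SD, n = 3 per group).

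**Figure D2:**
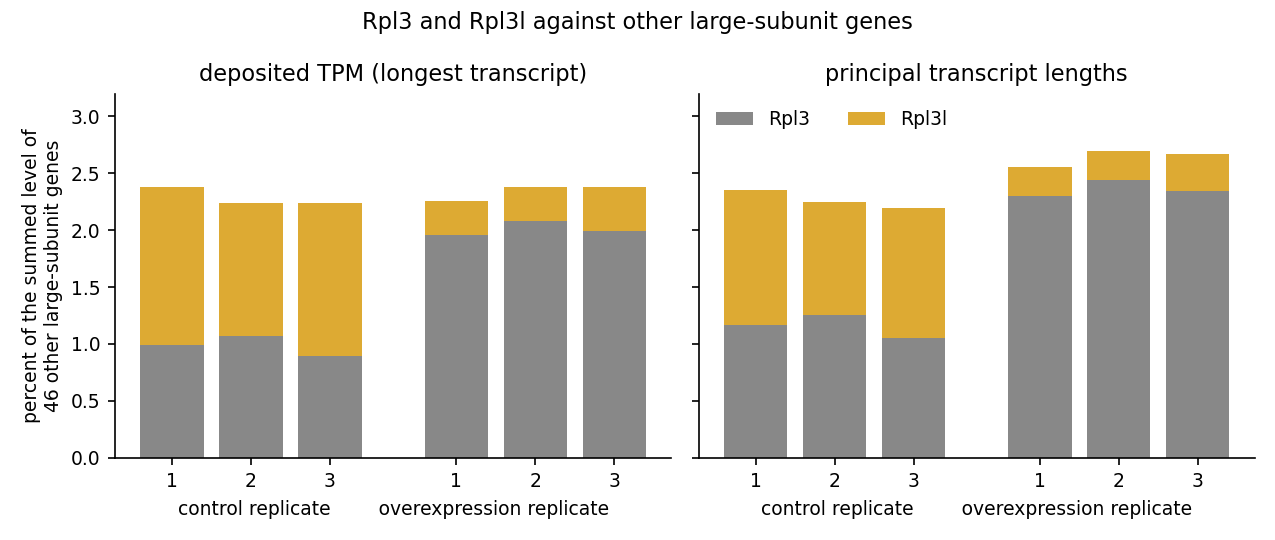
Rpl3 (grey) and Rpl3l (yellow) as percent of the summed level of 46 other large-subunit genes, stacked per library, for 3 control and 3 overexpression replicates. The left panel uses deposited TPM, where the bars reach 2.24% to 2.38% in both groups, and the right panel uses principal transcript lengths, where overexpression bars reach 2.55% to 2.69% against 2.20% to 2.35%.

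Most other cytosolic ribosomal protein genes rose in TPM, with a median near that of all genes. Of 78 tested genes 72 rose and 0 fell in TPM (limma, adjusted p under 0.05), beside 59.0% of all tested genes that rose and 9.09% that fell. After rescaling 5 rose and 8 fell, beside 22.2% and 24.0% of all genes. The median gene of the list had a log2 difference of 0.65 in TPM and 0.03 after rescaling, against medians of 0.55 and 0.01 for all genes. Rpl3 stood above all 78 under both scalings, 1.05 above their median in TPM and 1.05 after rescaling.

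The 3 largest rises among them were in Rpl38, Rps26 and Rpl12. Rpl38, a small protein of the large subunit, went from 232 ± 17.5 to 533 ± 66.1 TPM (SD, n = 3 per group, limma adjusted p = 6.23e-05) and also rose after rescaling (log2 difference 0.57, adjusted p = 0.00206). Rps26 and Rpl12 rose 2.08-fold and 2.00-fold in TPM. Among the smallest called differences were those of Rps2 and Rplp2, at 1.22 and 1.23 times the control mean in TPM, and both were lower after rescaling (log2 differences -0.35 and -0.34, adjusted p = 0.0314 and 0.0329).

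Genes that act on RPL3 itself or on assembly of the large subunit were read next. Grwd1, the chaperone that holds newly made RPL3 until it joins the assembling subunit, stood at 5.31, 7.24 and 5.82 TPM in control libraries and 30.6, 26.7 and 17.4 TPM with overexpression. It rose 4.07-fold (limma log2 difference 1.84, SE 0.210, adjusted p = 0.000145), and after rescaling as well (1.26, adjusted p = 0.001). Grwd1 had the largest difference of the 47 large-subunit assembly genes. Of these 47 genes 44 (93.6%) rose and 0 fell in TPM, beside 59.0% and 9.09% of all tested genes. After rescaling 27 (57.4%) rose and 2 (4.26%) fell, beside 22.2% and 24.0% of all genes, and the list median was 0.46.

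Bop1 and Mak16, both needed for assembly of the large subunit, rose 3.41-fold and 3.72-fold in TPM and also after rescaling (log2 differences 1.07 and 1.09, adjusted p = 0.000187 and 0.00109). Ddx24, Nvl and Ddx51 had the smallest called differences in TPM, 1.42-fold, 1.51-fold and 1.62-fold, and were not called after rescaling. Mettl18, the enzyme that methylates a histidine of RPL3, was at 2.24 ± 0.596 and 2.72 ± 0.427 TPM (SD, n = 3 per group) and was not called (limma adjusted p = 0.34, and 0.372 after rescaling).

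Genes of ribosomal RNA synthesis were called higher in 11 of 14 and lower in 0 in TPM, and higher in 5 and lower in 2 after rescaling, with medians of 0.89 and 0.34. These were 78.6% higher in TPM and 35.7% higher and 14.3% lower after rescaling, beside 59.0%, 22.2% and 24.0% of all tested genes. Taf1d, a subunit of the selectivity factor of RNA polymerase I, rose from 4.82 ± 0.656 to 19.6 ± 7.52 TPM, and Rrn3, which brings the polymerase to its promoter, from 24.5 ± 1.01 to 48.9 ± 3.71 TPM (SD, n = 3 per group). Cd3eap, a polymerase I subunit, rose 2.09-fold. All 3 were also called higher after rescaling (limma adjusted p = 0.00429, 0.0082 and 0.0486). Ubtf, Taf1b and Polr1d, with the smallest called differences, rose 1.43-fold to 1.71-fold in TPM and were not called after rescaling.

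**Figure D3:**
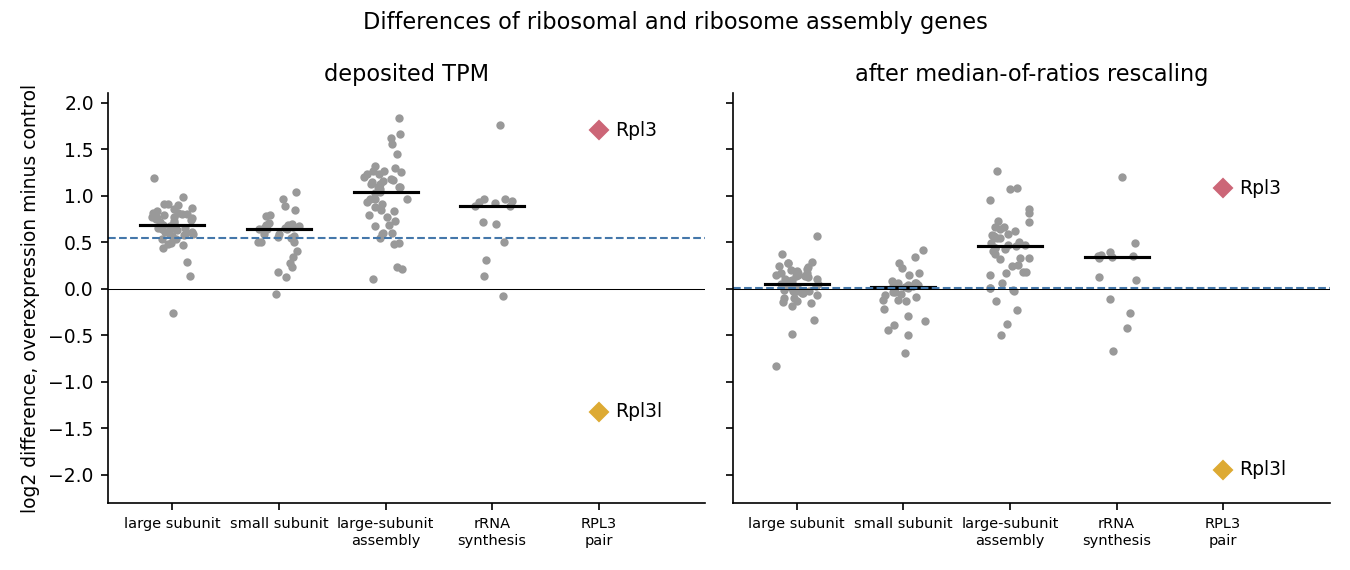
Log2 differences, overexpression minus control, for large-subunit, small-subunit, large-subunit assembly and rRNA synthesis genes, with Rpl3 and Rpl3l as diamonds, in deposited TPM (left) and after rescaling (right). Each grey point is 1 gene, black lines are list medians and the dashed line is the median of all tested genes; Rpl3 lies above all other ribosomal protein genes in both panels and Rpl3l, at -1.32 and -1.94, below them.

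Other ribosomal protein genes also have a like-named second gene, and 6 such pairs were compared in the same way. Whether the second protein takes the place of the first in the ribosome was not tested for these pairs. The share of Rpl22l1 beside Rpl22 was 10.5% ± 1.10 in control and 11.2% ± 1.04 with overexpression, and that of Rpl7l1 beside Rpl7 was 7.37% ± 1.02 and 8.05% ± 0.275 (SD, n = 3 per group), with overlapping groups. Rpl36al beside Rpl36a went from 29.3% ± 1.32 to 30.6% ± 0.353. Rps27l beside Rps27 had the largest difference of the 6, 36.9%, 36.2% and 32.9% in the control libraries against 48.8%, 57.8% and 51.9% in the overexpression libraries. There the second gene took a larger share, the opposite of Rpl3l. Rps27l rose 1.95-fold in TPM (limma adjusted p = 0.000623) but not after rescaling (0.0652), where Rps27 was lower (log2 difference -0.69, adjusted p = 0.00441). At principal transcript lengths the shares in control and with overexpression were 28.9% and 30.3% for Rpl22l1, 5.48% and 5.996% for Rpl7l1, 19.8% and 20.7% for Rpl36al, and 24.4% and 39.9% for Rps27l. The share of Rpl22l1 thus depends most on the lengths, while the direction and the overlap of the groups were the same for these 4 pairs. Rpl39l was at or below 0.301% of its pair, and Rpl10l was listed at 0 in all 6 libraries.

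The nearest comparison in protein synthesis is elongation factor 1A, which brings transfer RNAs to the ribosome and also has a muscle and nerve form, Eef1a2, beside the wider Eef1a1. The share of Eef1a2 was 44.8%, 46.2% and 49.8% in control libraries and 26.2%, 24.9% and 30.7% with overexpression. Eef1a1 rose from 928 ± 102 to 2662 ± 379 TPM (SD, n = 3 per group, limma log2 difference 1.51, SE 0.128, adjusted p = 4.22e-05), and 0.89 after rescaling (adjusted p = 0.000523). Eef1a2 rose in TPM, from 818 ± 18.7 to 987 ± 9.01 TPM (adjusted p = 0.00985), and fell after rescaling (log2 difference -0.35, adjusted p = 0.0121). Unlike Rpl3l it was thus not lower in deposited TPM. Of the 9 elongation factor genes tested 7 rose and 0 fell in TPM, beside 59.0% and 9.09% of all tested genes. After rescaling 2 rose (22.2%) and 4 fell (44.4%), beside 22.2% and 24.0% of all tested genes. The share that rose was thus that of all genes, and the share that fell was higher.

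In 18 pairs of a muscle or adult form with a wider or fetal form, elongation factor 1A included, the share of the muscle or adult form was lower in every overexpression library than in every control library for 14 pairs. It was higher for 1 pair (Pygm beside Pygb) and overlapped for 3 (Pgam2, Cpt1b and Phka1). The largest differences of the share were in Actc1 beside Acta1, from 98.1% ± 0.835 to 67.5% ± 4.14, in Cox7a1 beside Cox7a2, from 63.9% ± 0.310 to 37.9% ± 4.04, and in Ldhb beside Ldha, from 75.6% ± 1.10 to 50.9% ± 4.21 (SD, n = 3 per group). Actc1 and Acta1 are the cardiac and skeletal actins, Cox7a1 the muscle form of a cytochrome oxidase subunit, and Ldhb the heart form of lactate dehydrogenase. Ldha is the form of skeletal muscle, so the Ldhb pair does not set a muscle form against a wider one, although it is counted that way here. The difference for Rpl3l, -43.0 percentage points, was larger in size than that of any of the 18 pairs. A share near 100% leaves little room on this scale, so the log2 ratio of the mean TPM of each pair was also compared, a measure chosen after the data were seen. The difference between groups was -3.05 for Rpl3l beside Rpl3, and 2 pairs lay below it. These were Actc1 with -4.60 and Tnni3, adult troponin I beside fetal Tnni1, with -4.96. The value for Tnni3 rests on a low control level of Tnni1, 0.415, 0.459 and 0.0268 TPM, and was -3.09 with the pseudocount of 1, against -3.03 for Rpl3l. The share of Tnni3 itself was 99.995% in the control and 99.85% with overexpression.

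Taken gene by gene, 13 of the 18 muscle or adult forms fell and 2 rose in TPM, beside 9.09% of all tested genes that fell, and 16 fell and 0 rose after rescaling, beside 24.0%. The 2 that rose in TPM were Actc1 and Eef1a2. Ldhb, the heart form, is counted among those that fell, and Ldha with the wider or fetal forms. The lists were chosen with earlier results of these data known, so these counts and those of the pairs are a description. Cox7a1 fell from 1197 ± 91.5 to 313 ± 33.2 TPM and Ldhb from 1620 ± 55.7 to 823 ± 98.6 TPM (SD, n = 3 per group, limma adjusted p = 8.47e-06 and 9.72e-05). Of the 18 wider or fetal forms 10 rose and 2 fell in TPM, which is 55.6% and 11.1% and near the 59.0% and 9.09% of all tested genes. After rescaling 7 rose and 6 fell, 38.9% and 33.3% beside 22.2% and 24.0%. Among these forms Tnni1, at 0.300 TPM in control, reached the mean required for testing only through its overexpression level. The median log2 difference was -0.52 for the muscle or adult forms and 0.49 for the others in TPM, and -1.15 and -0.13 after rescaling, against 0.55 and 0.01 for all genes.

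**Figure D4:**
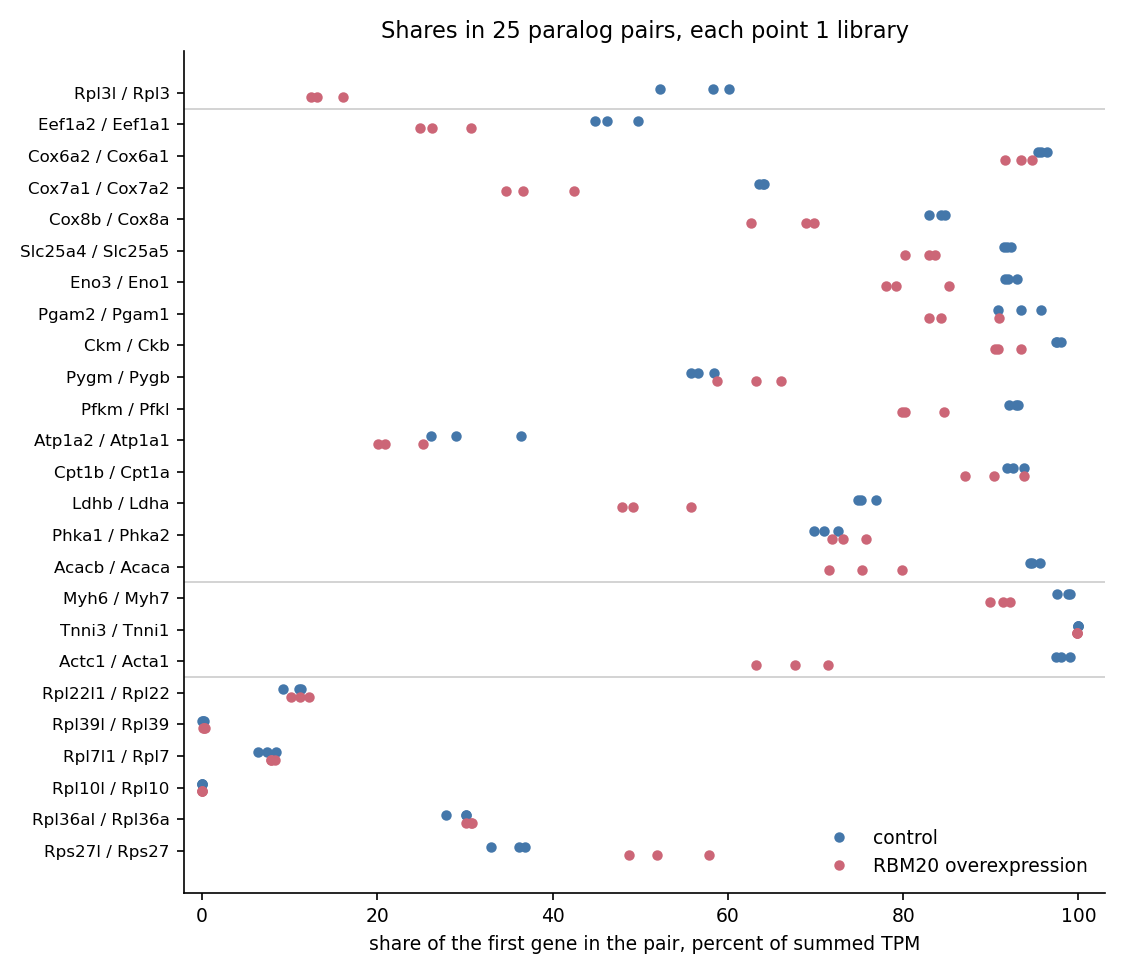
Share of the first gene in the summed TPM of each of 25 paralog pairs, in percent, with control libraries in blue and RBM20 overexpression libraries in red, 1 point per library. From top to bottom the blocks are the RPL3 pair, muscle beside wider forms, adult beside fetal sarcomere forms, and second genes of other ribosomal proteins. The block of muscle beside wider forms includes the heart form Ldhb beside the skeletal-muscle form Ldha. The Rpl3l share lies between 52.3% and 60.2% in control and between 12.5% and 16.1% in overexpression libraries.

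Whole ventricle holds several cell types, and in bulk RNA fewer cells of a type and less RNA per cell cannot be told apart. The calls on cell type markers stand beside 59.0% of all tested genes higher and 9.09% lower in TPM, and 22.2% higher and 24.0% lower after rescaling. The 16 cardiomyocyte markers summed to 66306 to 75162 TPM in the control and 64192 to 70044 TPM in the overexpression libraries, with 6 genes higher (37.5%) and 5 lower (31.2%) in TPM, and 2 higher (12.5%) and 9 lower (56.2%) after rescaling. Rpl3l came to 0.267% ± 0.0263 of that sum in control and 0.111% ± 0.00272 with overexpression (SD, n = 3 per group). It was thus also lower relative to the sum, but not relative to every single marker. The median log2 difference of the 16 markers was 0.03 in TPM and -0.60 after rescaling. In TPM their differences ranged from -1.53 to 1.75, and the lowest lay below that of Rpl3l (-1.32) there and after rescaling. Macrophage markers summed to 541, 461 and 408 TPM in the control and 1576, 1260 and 908 TPM in the overexpression libraries, with 14 of 14 genes higher, and 12 (85.7%) after rescaling. Fibroblast markers summed to 1489 to 1972 and 2717 to 3405 TPM, with 10 of 14 higher (71.4%) and 1 lower, and 7 higher and 3 lower (21.4%) after rescaling. Cell cycle genes summed to 49.3 to 56.8 and 142 to 229 TPM, with 12 of 12 higher and 11 (91.7%) after rescaling. However, 6 of them averaged under 1 TPM in control. These 6 reached the mean of 1 TPM required for testing only through their overexpression levels, which favours a call of higher. Endothelial markers summed to 725 to 935 and 885 to 966 TPM, with 1 of 12 higher (8.33%) and 0 lower, and 0 higher and 4 lower (33.3%) after rescaling. No marker of these 5 lists was at 0 in any library. Rpl3 is made in all of these cells, and the part of these cell types in its level was not tested.

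Profiles most like those of the 2 genes were found among 6635 other genes averaging 10 TPM or more, by the root mean square difference of centred log2(TPM + 1) values over the 6 libraries. For Rpl3 these were Hsp90aa1, Cyb5r3, Il4ra, Fxyd5 and Tmbim1, with differences of 0.061 to 0.087. Hsp90aa1, the inducible form of the chaperone HSP90, went from 105 ± 13.7 to 344 ± 54.2 TPM, and Il4ra, a chain of the interleukin 4 receptor, from 8.498 ± 0.874 to 29.6 ± 3.72 TPM (SD, n = 3 per group). For Rpl3l they were Retsat, Slc25a11, Gatd3a, Pcca and Alas1, with differences of 0.069 to 0.109. Slc25a11, the mitochondrial carrier of oxoglutarate and malate, went from 419.8 ± 23.7 to 164 ± 14.0 TPM. Pcca, a subunit of propionyl-CoA carboxylase, went from 58.6 ± 3.22 to 22.6 ± 1.89 TPM, and Alas1, the first enzyme of haem synthesis, from 103.2 ± 10.2 to 46.5 ± 4.16 TPM. These genes were selected for the likeness, over 6 libraries that fall into 2 groups, so their values are a description.

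The genes lying next to the pair were read in the same way. Rpl3 overlaps Syngr1, a gene on the opposite strand, which stood at 1.57 times its control mean in TPM (limma adjusted p = 0.00656) and was not called after rescaling (0.957). Its next protein-coding neighbours, Pdgfb and Tab1, were not called (adjusted p = 0.9996 and 0.18). Next to Rpl3l, Ndufb10, a subunit of respiratory complex I, fell from 948 ± 79.2 to 519 ± 42.3 TPM (SD, n = 3 per group, adjusted p = 0.000136) and also fell after rescaling, while Msrb1 rose 1.37-fold in TPM (adjusted p = 0.00522) and was not called after rescaling (0.156). Rpl3 also hosts 4 small RNA genes on its strand, which were not analysed here. Gene totals add up all transcripts of a gene, so they do not separate the Rpl3 messenger RNA from transcripts annotated with a retained intron or as targets of nonsense-mediated decay.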

How the data were processed

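Polyadenylated RNA of left ventricle was sequenced in 6 libraries, 3 per genotype label. The deposited table holds TPM per gene symbol, made by the authors, per the file headers and file name. Build mm8 and the tools STAR-Fusion 1.11.0, GATK 4.2.6.1, featureCounts 2.0.3 and edgeR 3.40.2 are named per the submitters' processing notes, with no roles. Build mm8 is not the build of the GENCODE M21 lengths that fitted the TPM steps, which belong to GRCm38. For aligner, annotation and strand the entry is: not given in the sources used here. Columns were matched to samples by title number and genotype. The labels do not say that the libraries come from separate animals, though Ddx3y sets overexpression replicate 1 apart by sex. The p-values thus measure the spread between these libraries, which may be partly technical.

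The 12404 genes averaging 1 TPM or more were compared as log2(TPM + 1), which understates the change of low genes. The comparison used limma 3.58.1 in R 4.3.3 (trended, two-sided, Benjamini-Hochberg, threshold 0.05). The fit was also run on simulated data, and that outcome is not given here. Folds are ratios of mean TPM. Read numbers were recovered from the TPM steps with GENCODE M21 lengths. Coding sequences came from GENCODE M21 and were aligned with Biopython 1.88.

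Members and lists were chosen with earlier results of these data known. Named were Rpl3, Rpl3l and the genes acting on RPL3, the 3 highest and 3 lowest called differences per ribosome list, elongation factor 1A, the 3 pairs with the largest fall and the 3 with the least change of the share, 5 most alike genes each, and neighbours. One gene that this rule names is not reported here. Other pairs were named after their values were seen. Alternatives were other scalings, pseudocounts, filters, limma settings, lengths and each library left out. No protein sequences were used here.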

Additional observations from a re-analysis of the deposited data

How the results depend on the processing

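Directions of Rpl3, Rpl3l and the share of Rpl3l were the same under all alternatives run. The log2 difference of Rpl3 (1.70) became 1.08 after median-of-ratios rescaling, 1.03 with that rescaling and without overexpression replicate 1, and 1.42 without mitochondrially encoded genes, and that of Rpl3l (-1.32) became -1.94, -1.95 and -1.61. Leaving out 1 library gave 1.58 to 1.79 for Rpl3, -1.39 to -1.22 for Rpl3l, and -45.4 to -41.4 percentage points for the share (-43.0 in all libraries). The share difference was -38.7 points in reads and -38.4 at principal transcript lengths. Both genes together, as percent of other large-subunit genes, differed by 0.05 points, by 0.0255 to 0.0986 with 1 library left out, and by 0.37 at principal transcript lengths. Called ribosomal protein genes numbered 72, but 13 after rescaling and 11 with rescaling and without overexpression replicate 1. Called assembly genes numbered 44, then 29 and 27. Over all genes 8443 were called (7316 higher, 1127 lower), 5727 after rescaling (2755 and 2972), 7178 without mitochondrially encoded genes (5382 and 1796) and 5222 with rescaling and without overexpression replicate 1. Leaving out 1 library gave 7225 to 8283 genes, 68 to 73 ribosomal, 41 to 44 assembly and 13 to 15 muscle or adult genes (15 in all libraries). Rescaling lowers log2 differences by construction, which moves calls from higher to lower, and the cause of the other shifts was not tested. No paired analysis was possible because the labels give the groups no shared numbers. With 3 libraries per group, more depth narrows the counting error but not the spread between libraries.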
